A study of Homo sapiens with 4 samples.

Results

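The genes described here act in G2 phase and mitosis, the stages in which a cell with replicated DNA prepares to divide and then separates its chromosomes. They are 42 genes listed by symbol, and each probe set with one of these symbols as its single gene name in the platform annotation was taken. All 42 genes were represented, by 87 probe sets of the 54675 on the array. The RNA came from Jurkat cells, a long-established line from a human T cell leukaemia, and each of the 4 groups has 1 array. The control line carries a vector, which the series design text calls a control hairpin, and the shIKKE line carries a short hairpin RNA against IKKε, the kinase encoded by IKBKE. Each line was kept for 3 h with solvent, or was stimulated for the same time with 10 ng/ml of PMA plus 0.5 uM of ionomycin. The phorbol ester PMA switches on protein kinase C, and the ionophore ionomycin raises cytosolic calcium, which together stand in for a signal through the T cell receptor. The labels do not say whether a line is a single clone or whether the cultures were handled on separate days. With no replicate in any group, a difference between arrays has no replicate check and is given without a p-value.

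Entry into mitosis is driven by the kinase CDK1 bound to cyclin B, and exit by the anaphase-promoting complex (APC/C), which marks cyclins and securin for destruction once the spindle checkpoint is satisfied. Many genes of this programme are transcribed late in the cell cycle by the MuvB complex with MYBL2 and FOXM1, and the DREAM complex, which shares the MuvB core, represses them in resting cells. Short promoter elements are known for this control, the CHR element (cell cycle genes homology region) and the CCAAT box bound by NF-Y. Jurkat cells divide continuously without stimulation, so these transcripts are present in solvent-treated cultures. In a bulk culture, fewer cells in G2 and mitosis cannot be told apart from less RNA of these genes per cell.

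The promoters of the genes carry the letters of both elements more often than promoters in general. RefSeq promoters of GRCh38.p14, from 250 bases before to 50 bases after a start site, were found for 35 of the 42 genes, with 45 start sites. The letters CCAAT, on either strand, stood in the promoters of 31 of these 35 genes (88.6%), against 39.7% of 27305 genes in the same table. The CHR letters TTTGAA, on either strand, stood in 25 of 35 (71.4%) against 18.2%. With TTTAAA, which reads the same on both strands, counted as well, the share was 31 of 35 (88.6%) against 27.9%. CCAAT and TTTGAA stood together in 23 of 35 (65.7%) against 7.26%. In 42 genes of DNA replication and S phase with a promoter in the table, TTTGAA stood in 1 (2.38%) and CCAAT in 26 (61.9%). Letters of E2F sites were the words TTCCCGC, or else TTTGGCG, or else TTTCCCG, on either strand. They stood in 30 of these 42 genes (71.4%), against 7 of the 35 mitosis genes (20%) and 12.6% of all genes. In 56 genes of a wider mitosis list, TTTGAA stood in 34 (60.7%), CCAAT in 39 (69.6%) and E2F letters in 18 (32.1%). The CHR letters also lay close to the start site. TTTGAA or TTTAAA stood within the last 50 bases before the start in 21 of 45 member promoters (46.7%) and in 4.39% of 35116 promoters, a window chosen after the positions were seen. A match of letters is not a measured binding site.

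The 120 bases before the start site are shown for 6 of these genes, chosen because they differ in which letters they hold and in the signals given further on. Capitals mark the CCAAT and CHR letters on either strand. The stretch of CCNB1, for cyclin B1, is chr5:69167030-69167149 on the plus strand, and that of CCNB2, for cyclin B2, is chr15:59105026-59105145 on the plus strand. The stretch of PLK1, a kinase of centrosomes and kinetochores, is chr16:23678769-23678888 (plus), and that of KIF20A, a kinesin of the central spindle, is chr5:138178992-138179111 (plus). The stretch of ANLN, for the contractile ring protein anillin, is chr7:36389742-36389861 (plus), and that of BUB1, a spindle checkpoint kinase, is chr2:110678064-110678183 (minus).
CCNB1: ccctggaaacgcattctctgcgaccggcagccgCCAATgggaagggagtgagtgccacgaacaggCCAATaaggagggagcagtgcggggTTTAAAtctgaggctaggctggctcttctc
CCNB2: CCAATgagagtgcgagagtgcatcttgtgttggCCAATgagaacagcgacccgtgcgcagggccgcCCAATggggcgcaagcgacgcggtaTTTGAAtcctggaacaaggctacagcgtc
PLK1: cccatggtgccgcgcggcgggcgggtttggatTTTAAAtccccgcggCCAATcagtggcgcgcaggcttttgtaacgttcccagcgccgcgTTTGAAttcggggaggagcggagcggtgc
KIF20A: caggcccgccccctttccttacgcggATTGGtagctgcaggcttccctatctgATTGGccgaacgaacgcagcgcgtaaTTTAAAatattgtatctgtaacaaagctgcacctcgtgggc
ANLN: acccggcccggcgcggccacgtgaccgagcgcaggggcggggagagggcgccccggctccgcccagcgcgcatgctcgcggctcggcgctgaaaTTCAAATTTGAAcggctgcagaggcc
BUB1: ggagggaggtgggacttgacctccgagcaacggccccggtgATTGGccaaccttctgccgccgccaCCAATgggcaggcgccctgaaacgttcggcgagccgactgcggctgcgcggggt
CCNB1 and KIF20A hold 2 CCAAT matches and 1 TTTAAA match each, CCNB2 holds 3 CCAAT matches and 1 TTTGAA match, and PLK1 holds 1 of each of the 3. ANLN holds 2 TTTGAA matches that abut each other in opposite orientation and no CCAAT, and BUB1 holds 2 CCAAT matches and neither CHR form in this stretch.

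The arrays were checked before the members were compared. The brighter IKBKE probe set gave 340 (solvent) and 520 (stimulation) for control cells against 180 and 248 for shIKKE cells, while a dimmer one gave 218 and 311 against 287 and 280. T cell genes were present on every array (CD3D 26370 to 28570, LCK 19172 to 22251). The 13 T cell markers, of which 12 passed the filter, summed to between 94783 and 107484. Single markers were not all level between arrays. CD2 read 1976 and 760 in control cells (solvent, then stimulation) and 500 and 353 in shIKKE cells. CD28 read 4677 and 2739, and 2345 and 2264. With solvent, 6 of the 12 were lower in the shIKKE line and 6 higher. The B cell genes MS4A1 and PAX5 and the myeloid genes CD14, LYZ and CD33 did not pass the filter. The 3 myeloid markers of 6 that passed it summed to between 78.5 and 259, and the 2 B cell markers of 5 to at most 495. Array medians lay between 48.8 and 69.1, with both stimulated arrays above both solvent arrays. RNA integrity, read from the 5′ to 3′ ratio of ACTB controls, gave its lowest value in the control line for solvent (0.244) and its highest there for stimulation (0.401), while the same ratio of GAPDH lay between 1.04 and 1.17 and was highest on the stimulated shIKKE array.

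Signals are MAS5 intensities on a linear scale, as deposited. Each gene is given by its brightest probe set, and differences are of log2(signal + 14.1), which understates the change of dim genes. All 42 genes passed the filter, a signal of 56.4 or more on at least 1 array, as did 81 of their 87 probe sets, and 35 of the 42 were among the 3430 genes of highest mean level of the 13717 that passed. Their differences are therefore also set beside those of these 3430 brightest genes, since bright genes scatter less between arrays. Probe sets differ in how strongly they respond to RNA, so signals are compared between arrays for one gene and not between genes.

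Most mitosis and G2 genes had their highest signal in the control line with solvent. That array was the highest of the 4 for 34 of 42 genes, against 31.7% of all genes, and the shIKKE line with stimulation was the lowest for 27, against 23.4% of all genes. For 24 genes both held. The median member signal of the control line was 5275 with solvent and 3601 with stimulation, and that of the shIKKE line was 4375 and 3430. The spread was modest, with a highest over lowest signal per gene of 1.73-fold in the median, from 1.10-fold to 2.83-fold.

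**Figure D1:**
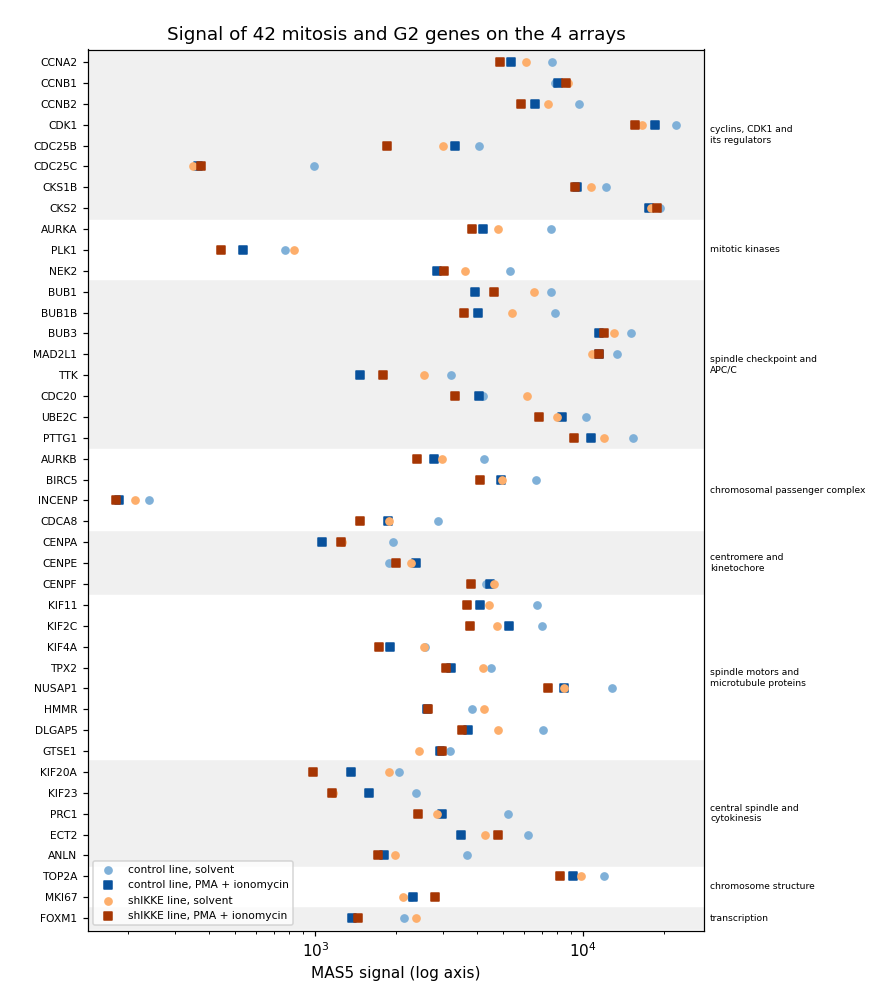
MAS5 signal (log axis) of each of the 42 genes on the 4 arrays, 1 point per array, with genes grouped by role. For 34 genes the control line with solvent (light blue circle) is the rightmost point, and CDC25C shows the widest gap, with 984 there and 348 to 374 on the other arrays.

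With stimulation in the control line, 38 of the 42 genes were lower and 4 were higher, and the median log2 difference was -0.52. Over all 13717 genes 54.7% were below 0 with a median of -0.07, and over the 3430 brightest genes 55.7% were below 0 with a median of -0.05. At least 2-fold lower were 3 members (CDC25C, TTK and ANLN), where 6.44% of all genes were, and none was at least 2-fold higher, where 7.57% of all genes were. Most members thus lay below the typical gene by less than 2-fold, and 17 of them were at least 1.5-fold lower, against 17.5% of all genes. The members' median minus that of all genes was -0.45 on the log2 scale as deposited and -0.40 after quantile normalization.

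With stimulation in the shIKKE line, 36 of the 42 were lower and 6 were higher, with a median log2 difference of -0.27. Over all genes 50.8% were below 0 with a median of -0.01, but over the 3430 brightest genes 68.0% were below 0 with a median of -0.14. No member was at least 2-fold lower, where 2.68% of all genes were, and none was at least 2-fold higher, where 10.3% of all genes were. Housekeeping genes were lower here too, with 11 of 11 measured below 0 and a median of -0.27, whereas in the control line their median was 0.05 with 5 of 11 below 0. What the members' difference in the shIKKE line shares with that of the housekeeping genes was not tested. After quantile normalization the members' median in this line was -0.22, or -0.13 relative to the median of all genes, and the housekeeping median was -0.12.

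Both stimulation comparisons, which share no array, were lower for 33 of the 42 members, higher for 1 (MKI67) and opposite for 8. Over all genes 34.2% were lower in both, and over the 3430 brightest genes 44.1%. Opposite were 5104 of all 13717 genes and 1219 of the 3430 brightest, larger shares than among the members. The difference was the more negative one in the control line for 32 members, and for 55.4% of all genes.

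**Figure D2:**
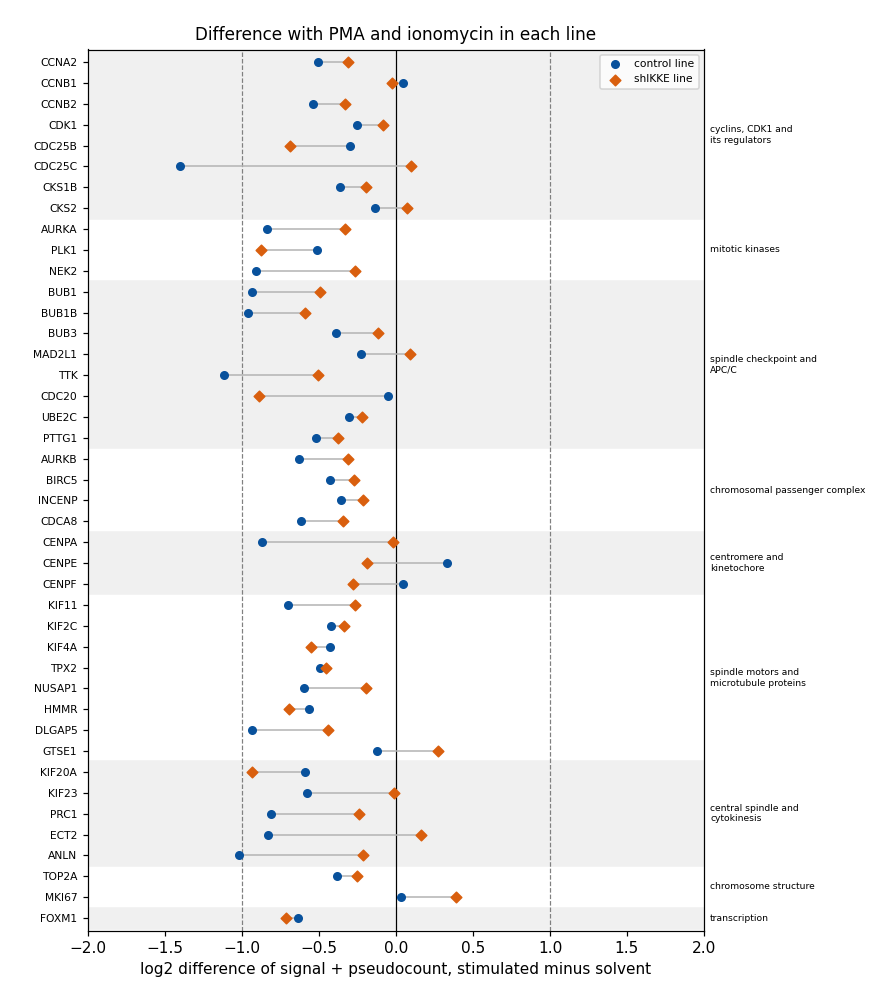
Log2 difference of signal + 14.1 between the stimulated and the solvent array of the control line (circles) and of the shIKKE line (diamonds) for each gene, with dashed lines at 2-fold and a grey bar joining both values of a gene. Most points lie left of 0 in both lines, and CDC25C, TTK and ANLN cross the 2-fold line in the control line.

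Averaged over both lines, the limma fit of line and stimulation across all genes left no member past an adjusted p of 0.05 for stimulation. The lowest adjusted p of a member was 0.323 and the median member effect was -0.45. At an unadjusted p under 0.05 there were 6 of 42 members and 13.8% of all genes. Of all genes 1 passed, which is 0.00729%. For the average difference between the lines 0 members and 0 genes (0%) passed, with 1 member and 7.29% of genes at an unadjusted p under 0.05. The single residual degree of freedom (1) of the fit holds how far the responses of the lines differ, not a spread between replicates. In a fit whose error variance follows the signal level, 6 members passed and were lower on average (BUB1B, TTK, BUB1, DLGAP5, KIF20A and HMMR), against 2.95% of all genes called lower, and that fit takes its error from other genes.

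Cyclins, CDK1 and its regulators ranged from differences near 0 to the largest of the set. CCNB1, whose product activates CDK1 at mitotic entry, read 7818 with solvent and 8077 with stimulation in the control line, and 8742 and 8589 in shIKKE cells. These values lie close together, with log2 differences of 0.05 and -0.03, and a second CCNB1 probe set gave -0.08 and 0.06. CCNB2 read 9614 and 6603 in the control line, and 7357 and 5854 in shIKKE cells (log2 -0.54 and -0.33). CCNA2, for cyclin A2 of S and G2 phase, read 7634 and 5359 in the control line and 6091 and 4894 in shIKKE cells. Both genes were thus lower on the stimulated arrays of each line, with the control line with solvent highest. CDK1 itself read 22195 and 18580 in the control line and 16587 and 15634 in shIKKE cells (log2 -0.26 and -0.09), and the latter difference was above 0 after quantile normalization. All 3 other CDK1 probe sets were lower with stimulation in both lines (log2 -0.81 to -0.13).

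CDC25C, a phosphatase that activates CDK1, read 984 and 363 in the control line (solvent, then stimulation), and 348 and 374 in the shIKKE line. The first array stands alone and the other 3 lie together. The log2 difference with stimulation was -1.40 in the control line and 0.10 in shIKKE cells, and that between the lines was -1.46 with solvent and 0.04 with stimulation. A second, dimmer CDC25C probe set was also highest on the first array (112, against 55.5, 37.3 and 41.2), while another reached 72.3 at most and was highest on the stimulated shIKKE array. CDC25B, a phosphatase of the same family, read 4089, 3320, 2987 and 1848 in the order control line with solvent and stimulation, shIKKE line with solvent and stimulation. It was lower with stimulation in each line and lower in the shIKKE line in each treatment. CKS1B and CKS2, small subunits that bind CDK1, differed little, with log2 differences with stimulation of -0.36 and -0.19 for CKS1B and -0.14 and 0.07 for CKS2 in the control and shIKKE lines. CKS1B and CKS2 are close paralogs, and how far their probe sets cross-react is not known here.

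The mitotic kinases were lower with stimulation in both lines. AURKA, the kinase of centrosome maturation and spindle assembly, read 7597 and 4236 in the control line and 4820 and 3827 in shIKKE cells (log2 -0.84 and -0.33). A second bright AURKA probe set gave -0.54 and -0.30. PLK1 read 772 and 537 in the control line and 831 and 446 in shIKKE cells (log2 -0.51 and -0.88). For PLK1 both solvent arrays were higher than both stimulated arrays. NEK2, a kinase of centrosome separation, read 5335, 2838, 3623 and 3017, in the order given for CDC25B, so that the control line with solvent was highest and the other 3 lay closer together. Its log2 differences with stimulation were -0.91 and -0.26.

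The spindle checkpoint kinases TTK and BUB1 and the related BUB1B were lower with stimulation in both lines. TTK, the checkpoint kinase MPS1, read 3200 with solvent and 1470 with stimulation in the control line, and 2537 and 1784 in shIKKE cells (log2 -1.12 and -0.50). BUB1 read 7573 and 3949, and 6537 and 4645 (log2 -0.94 and -0.49). Its other probe sets past the filter had a mean signal of at most 153 and differed in direction. They gave 0.18 and 0.11, 0.96 and 2.13, and -0.53 and -1.70. BUB1B, for the checkpoint protein BUBR1, read 7876 and 4047, and 5416 and 3590 (log2 -0.96 and -0.59). For all 3 genes both stimulated arrays lay below both solvent arrays. MAD2L1, for the checkpoint protein MAD2, read 13375 and 11436, and 10748 and 11460. The control line with solvent was thus highest and the other 3 were close. Another bright MAD2L1 probe set read 7076 and 6378, and 7318 and 6344, with both solvent arrays above both stimulated ones. A dimmer MAD2L1 probe set was again highest in the control line with solvent (549, against 376, 358 and 382). BUB3, a WD-repeat partner of BUB1 and BUBR1, had log2 differences of -0.39 and -0.12.

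CDC20, UBE2C and PTTG1, of the APC/C pathway, were lower with stimulation in both lines, by differing amounts. CDC20, the activator that the checkpoint holds back, read 4232 and 4073 in the control line, and 6179 and 3322 in shIKKE cells. Its log2 difference with stimulation was -0.06 in the control line and -0.89 in shIKKE cells, where the solvent array was the highest of the 4. UBE2C, an E2 enzyme that works with the APC/C, had differences of -0.30 and -0.22, and PTTG1, for the securin that the APC/C destroys, of -0.52 and -0.38. The PTTG1 probe set carries a suffix (_x_at) for probes shared with other transcripts, as do those that represent CENPA, FOXM1 and GTSE1. PTTG1, CENPA and FOXM1 have no other probe set here. Of 16 APC/C subunits and cofactors, 15 were measured and none was 2-fold different in any comparison. Their median log2 difference with stimulation was 0.05 in the control line, or -0.18 after median centring of the arrays, and -0.08 in the shIKKE line, or -0.46 after median centring and 0.004 after centring on the 3430 brightest genes.

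By their brightest probe sets, all 4 genes of the chromosomal passenger complex, which corrects chromosome attachment and guides cytokinesis, were lower in every comparison. AURKB, its kinase, read 4270 and 2760 in the control line and 2969 and 2389 in shIKKE cells (log2 -0.63 and -0.31). A second, much dimmer AURKB probe set was higher with stimulation in both lines (log2 1.46 and 0.32). BIRC5, for survivin, read 6633 and 4919, and 4974 and 4110 (log2 -0.43 and -0.27). CDCA8, for borealin, gave -0.62 and -0.35, and the scaffold gene INCENP, which was dim (180 to 240), gave -0.36 and -0.22. BIRC5 had 3 further probe sets, of which 1 was lower and 1 higher with stimulation in both lines. For shIKKE over control cells, with solvent and then stimulation, these 3 gave 0.18 and 0.04, 0.18 and -0.35, and -0.22 and 0.05. The dimmer AURKB probe set gave 0.59 and -0.55.

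Centromere genes did not share one direction. CENPA, for the histone variant that marks centromeres, read 1952 and 1062 in the control line, and 1258 and 1242 in shIKKE cells (log2 -0.87 and -0.02). CENPE, a kinetochore kinesin, read 1889 and 2380, and 2274 and 1991, which made it the member with the largest positive difference in the control line (0.33) against -0.19 in the shIKKE line. CENPF, a large kinetochore protein, gave 0.05 and -0.28, and its second probe set past the filter had the opposite signs (-0.35 and 0.23). The sign in the control line was the same under the other scalings for CENPE and turned to -0.18 with median centring for CENPF.

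Spindle motors and microtubule proteins were lower in the control line throughout, 8 of 8, and in the shIKKE line for 7 of 8. DLGAP5, which stabilises spindle fibres at kinetochores, read 7091 and 3709, and 4809 and 3539 (log2 -0.93 and -0.44). KIF11, the kinesin that separates spindle poles, read 6721 and 4124, and 4443 and 3685 (log2 -0.70 and -0.27). HMMR, a microtubule-binding protein of the poles, read 3849 and 2599, and 4256 and 2628, with both solvent arrays above both stimulated ones (log2 -0.56 and -0.69). TPX2, which activates Aurora A on the spindle, gave -0.50 and -0.45, NUSAP1 -0.60 and -0.20, KIF2C -0.42 and -0.34, and KIF4A -0.43 and -0.55. GTSE1, a microtubule-binding protein of G2 and mitosis, read 3186 and 2921, and 2445 and 2959 by its brightest probe set (log2 -0.12 and 0.27). The other 3 GTSE1 probe sets past the filter gave -0.67 to -0.56 in the control line and -0.63 to -0.35 in the shIKKE line, so the brightest one stood apart.

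Among genes of the central spindle and cytokinesis, all 5 were lower in the control line. ANLN read 3683 and 1806, and 1991 and 1716 (log2 -1.02 and -0.21), and a second probe set gave -0.69 and -0.43. PRC1, which bundles microtubules of the central spindle, read 5215 and 2971, and 2856 and 2410 (log2 -0.81 and -0.24). In both genes the control line with solvent was well above the other 3 arrays. KIF20A read 2054 and 1360, and 1877 and 977 (log2 -0.59 and -0.93), the largest difference of any member in the shIKKE line, with both solvent arrays above both stimulated arrays. ECT2, the exchange factor that switches on RhoA for the cleavage furrow, read 6217 and 3493, and 4307 and 4815 (log2 -0.83 and 0.16). KIF23, a kinesin of the central spindle, read 2378 and 1592, and 1166 and 1158, so that it differed with stimulation in the control line alone by value (log2 -0.58 and -0.01), and the difference between the responses has no test.

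TOP2A, for the topoisomerase that untangles sister chromosomes, read 11984 and 9180, and 9788 and 8194 (log2 -0.38 and -0.26), and its second probe set past the filter gave -0.33 and -0.37. MKI67, which codes for the proliferation antigen Ki-67 of the mitotic chromosome surface, was the one member higher with stimulation in both lines, with 2270 and 2319, and 2131 and 2794 (log2 0.03 and 0.39). The other 3 MKI67 probe sets were also higher in both lines, by 0.18 to 0.58, and with median centring the brightest one gave -0.20 in the control line and 0.004 in shIKKE cells. FOXM1, the transcription factor of the late cell cycle genes, read 2135 and 1368, and 2368 and 1437 (log2 -0.64 and -0.71). Both stimulated arrays lay well below both solvent arrays.

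**Figure D3:**
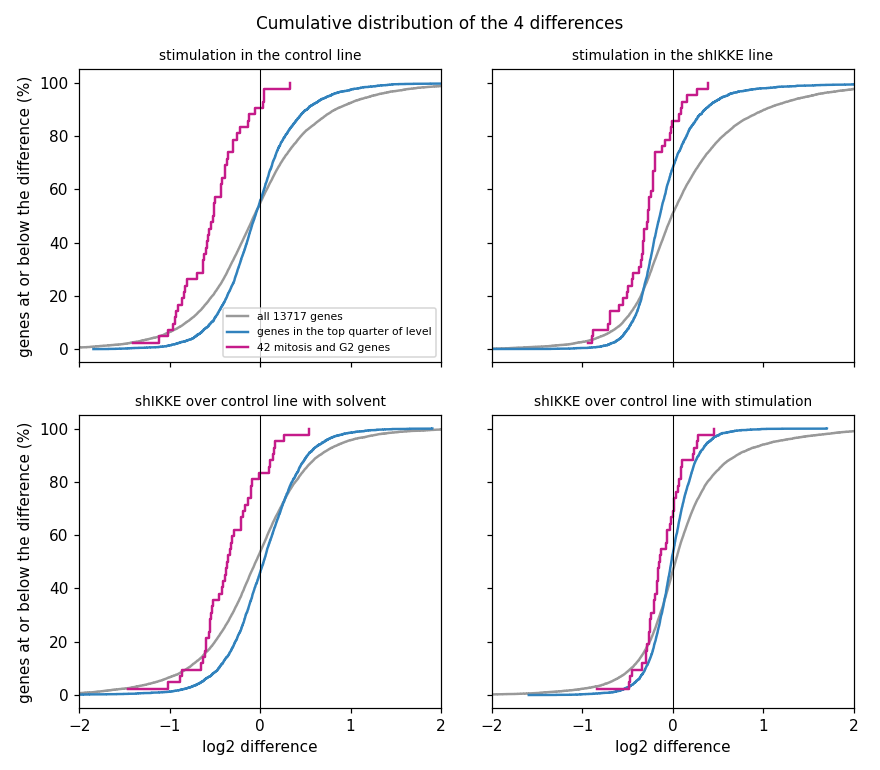
Share of genes (%) at or below each log2 difference for the 42 genes, the 3430 brightest genes and all 13717 genes, in each of the 4 comparisons, cut at 2 on either side. The curve of the 42 genes lies to the left of the others most clearly for stimulation in the control line (median -0.52) and for the lines with solvent (median -0.36), the 2 comparisons that share the array of the control line with solvent.

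Without stimulation, the shIKKE line was compared with the control line. Of the 42 members 35 were lower in the shIKKE line and 7 higher, with a median log2 difference of -0.36. Over all genes 53.7% were below 0 with a median of -0.05, and over the 3430 brightest genes 46.0% were below 0 with a median of 0.04. At least 2-fold lower were 2 members, CDC25C (log2 -1.46) and KIF23 (-1.02), where 6.68% of all genes were. None was at least 2-fold higher, where 4.34% of all genes were. The next largest were ANLN (-0.88) and PRC1 (-0.87), and AURKA gave -0.65 and KIF11 -0.60. The largest positive differences were those of CDC20 (0.54), CENPE (0.27), CCNB1 (0.16) and FOXM1 (0.15). This comparison and stimulation in the control line share the array of the control line with solvent, so a high value there makes both lower.

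With stimulation, the lines lay closer together, with 28 of 42 members lower in the shIKKE line, 14 higher and a median of -0.14. Over all genes 46.5% were below 0 with a median of 0.03, and over the 3430 brightest genes 52.9% were below 0 with a median of -0.01. No member was at least 2-fold lower or higher, where 2.37% of all genes were lower and 5.99% higher. CDC25B (log2 -0.84), KIF2C (-0.48), KIF20A (-0.47) and KIF23 (-0.45) had the largest negative differences. ECT2 (0.46), TTK (0.28), MKI67 (0.27) and BUB1 (0.23) had the largest positive ones. Housekeeping genes had a median of -0.24 here, with 10 of 11 below 0, against the members' -0.14, and after quantile normalization their median was -0.07 against the members' -0.13.

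Both line comparisons, which share no array, were lower for 24 members, higher for 3 and opposite for 15. Of all 13717 genes, 27.4% were lower in both and 6235 were opposite. By the brightest probe sets, all 4 passenger complex genes were lower in the shIKKE line in both treatments. So were 6 of 8 spindle motor and microtubule genes and 3 of 8 checkpoint and APC/C genes. Other BIRC5 and AURKB probe sets differed in sign, as given above.

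**Figure D4:**
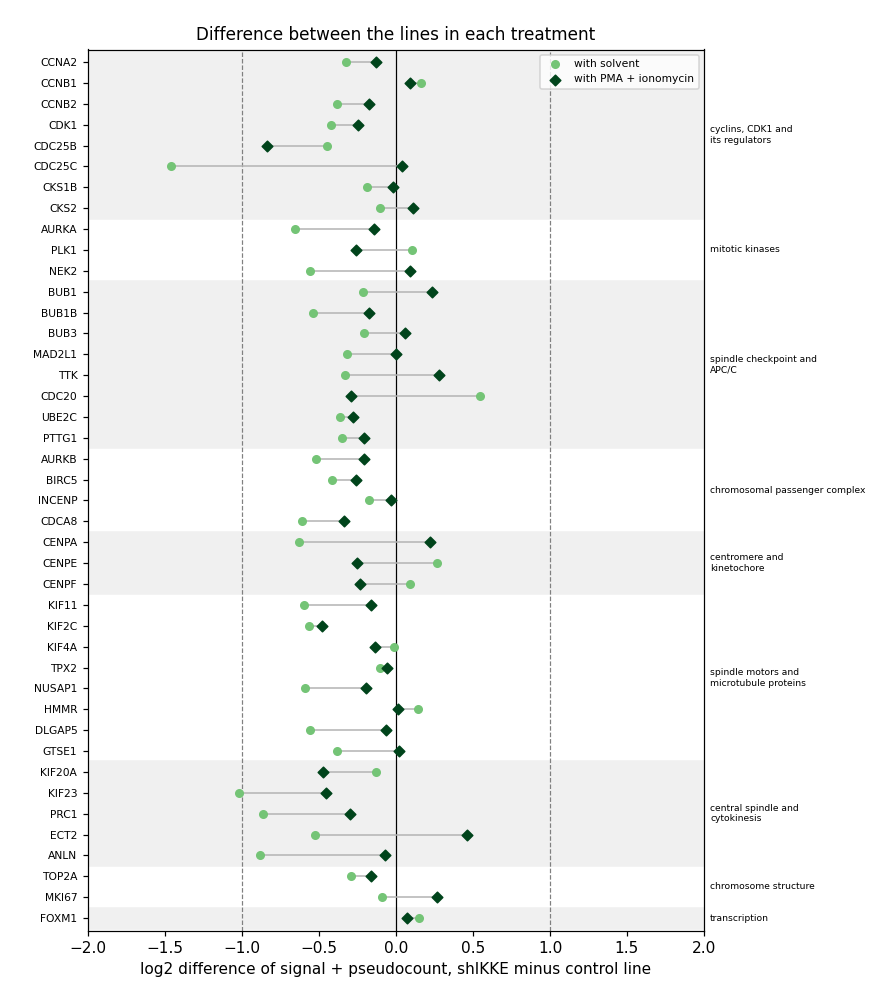
Log2 difference of signal + 14.1 between the shIKKE and the control line with solvent (light circles) and with stimulation (dark diamonds) for each gene, with dashed lines at 2-fold. CDC25C and KIF23 cross the 2-fold line with solvent and no gene does with stimulation.

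The probe sets of a gene measure the same RNA and show how far a value depends on the probes. Among the 81 member probe sets past the filter, 67 were below 0 with stimulation in the control line and 60 in shIKKE cells. Of the 22 genes with more than 1 such probe set, all probe sets had the same sign for 15 in the control line and for 11 in the shIKKE line. For the 68 probe sets with a mean signal of at least 226, 58 were below 0 in the control line and 54 in shIKKE cells, with medians of -0.45 and -0.27. The 13 dimmer ones scattered from -1.24 to 0.96 in the control line and from -1.70 to 2.13 in the shIKKE line.

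**Figure D5:**
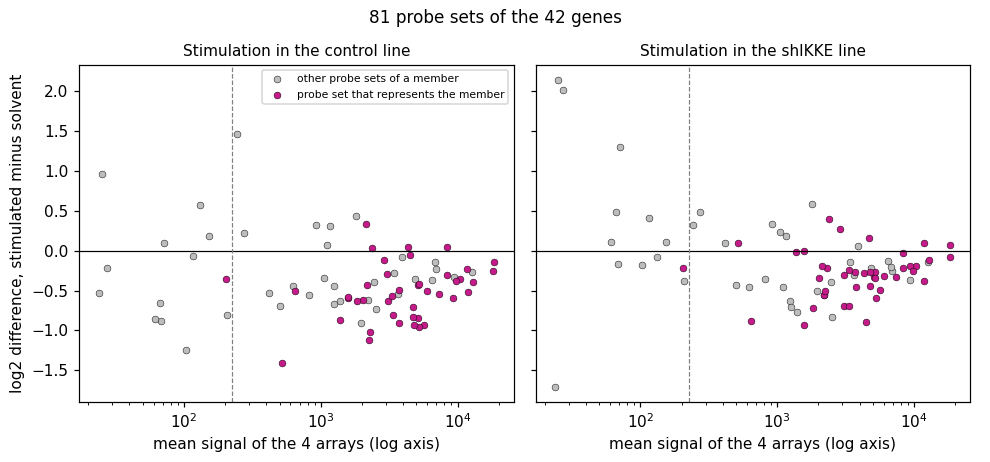
Log2 difference with stimulation of the 81 member probe sets against their mean signal (log axis), in the control line (left) and the shIKKE line (right), with a dashed line at a mean signal of 226. Pink points are the probe sets that represent a gene, and the grey points left of the dashed line scatter from -1.70 to 2.13 in the shIKKE line.

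Further genes of mitosis were taken from a wider list, of which 68 of 70 were measured. With stimulation in the control line 56 of the 68 were lower, 6 of them at least 2-fold (8.82%, against 6.44% of all genes), with a median of -0.37. None was 2-fold higher, where 7.57% of all genes were. In the shIKKE line 54 were lower, 2 of them at least 2-fold (2.94%, against 2.68% of all genes), with a median of -0.23. SPC24, a subunit of the NDC80 kinetochore complex, read 2728 and 790 in the control line, and 815 and 399 in shIKKE cells. PSRC1, a spindle protein that is also a p53 target, read 1457 and 489, and 1269 and 594. Both were at least 2-fold lower in both lines (log2 -1.77 and -1.005 for SPC24, -1.55 and -1.08 for PSRC1). CENPH, of the inner kinetochore, read 3609 and 1543, and 1170 and 1268, with the control line with solvent well above the rest. FBXO5, an inhibitor of the APC/C also called EMI1, read 4737 and 2217, and 2515 and 2244, and was also highest on that array. Between the lines with solvent, 55 of the 68 were lower in the shIKKE line, 2 of them at least 2-fold (SPC24 and CENPH), which is 2.94% against 6.68% of all genes.

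DNA replication and S phase genes were lower by a smaller median in the control line. Of 48 measured, 33 were lower with stimulation in the control line and 39 in shIKKE cells, with medians of -0.25 and -0.26. Over all genes 54.7% and 50.8% were lower. At least 2-fold lower were 2 in the control line (4.17%, against 6.44% of all genes) and 1 in shIKKE cells (2.08%, against 2.68%). None was 2-fold higher in either line, where 7.57% and 10.3% of all genes were. The replication licensing factor CDT1 read 3879 and 1474 in the control line and 2028 and 1682 in shIKKE cells (log2 -1.39 and -0.27). ORC1, of the origin recognition complex, read 982 and 465, and 893 and 422, and was lower by the same amount in both lines (log2 -1.06 in each). Set beside these, the mitosis and G2 genes had medians of -0.52 and -0.27, and the difference between the lists was not tested.

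The regulators of the programme did not share one direction with stimulation. Of 24 listed regulators of DREAM, MuvB, E2F and NF-Y, 23 were measured, with 12 lower in the control line and 11 in shIKKE cells, and medians of -0.05 and 0.02. MYBL2, the activating partner of MuvB, read 3154 and 2646, and 2782 and 1987 (log2 -0.25 and -0.48). E2F2, an activator of S phase genes, was at least 2-fold lower in both lines, with 2635 and 1232, and 1395 and 641 (log2 -1.09 and -1.11). E2F3 was higher with stimulation in both lines, by at least 2-fold in the control line. It read 2484 and 5734 there, and 3483 and 5537 in the shIKKE line (log2 1.20 and 0.67). CDKN1A, for the CDK inhibitor p21, read 245 and 1312 in the control line and 101 and 935 in shIKKE cells (log2 2.36 and 3.05), and so was higher where most members were lower. Among 11 measured G1 cyclins and CDK inhibitors of 14, CDKN1A was the one at least 2-fold higher with stimulation in each line. What CDKN1A has to do with the members' signals was not tested.

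Over all genes, the share of 2-fold calls that were higher moved with the scaling of the arrays, which bears on the counts above. It was 54.0% in the control line as deposited, 40.6% after quantile normalization and 30.7% with each array centred on its median. For stimulation in the shIKKE line it was 79.4%, 53.3% and 42.6%, and for the lines with stimulation it was 71.7%, 59.2% and 58.1%. Median centring put the median of all genes at -0.30 with stimulation in the control line and at -0.40 in the shIKKE line.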

How the data were processed

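Total RNA of 4 Jurkat samples, labelled with biotin, was hybridised to 1 single-colour array each. The deposited values are intensities, MAS5 signals without a log, per the submitters' processing notes, while the sources used here do not give the version or scaling target. The authors' values share one scale, with a trimmed mean of 500.07 per array when 2% is cut at each end. Their number, 1 array per group, limits the precision. The labels do not give separate cultures.

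Of the probe sets, 62 controls were left out, and the annotation named 1 gene for 41091, several for 1801 and none for 11721. The 2 that name a member beside other genes were not used. All 87 member probe sets matched RefSeq (GRCh38.p14) by gene ID. Differences were taken on log2(signal + 14.1), where 14.1 is the 25th percentile of all signals. Probe sets were kept where the highest array reached 56.4, the median of all signals (26218 probe sets, 13717 genes), and the one with the highest mean represented a gene. A gene was called at 2-fold (log2 of 1). Average effects were fitted over all genes with limma 3.58.1 in R 4.3.3 (additive model, two-sided, Benjamini-Hochberg). The fit was tested on simulated data whose effects were equal in both lines and larger than those of the members. That test therefore does not show whether effects of the members' size would pass. Other steps used Python 3.11.15, pandas 2.3.3 and numpy 2.4.6, and plots matplotlib 3.10.9. Members, lists, named genes and tests were chosen with earlier results of these data known. Named in full were members 2-fold different, the 4 largest differences each way per comparison, and leading regulators; from other lists, up to 4 genes of largest difference. The other settings tried, with their effects, are in the closing section. A planned comparison of CKS1B and CKS2 proteins was not run.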

Additional observations from a re-analysis of the deposited data

Results flagged for a closer look

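For 8 of the 42 members the stimulated array was above the solvent array in one line and below it in the other. The same held for 5104 of all 13717 genes, which is a larger share. With 1 array per group the difference between the responses was not tested. The response in the shIKKE line minus that in the control line was 1.501 for CDC25C, 0.99 for ECT2, 0.40 for GTSE1, 0.32 for MAD2L1 and 0.21 for CKS2 on the log2 scale. It was -0.52 for CENPE, -0.33 for CENPF and -0.072 for CCNB1. With median centring both responses were below 0 for CDC25C, ECT2, GTSE1, MAD2L1, CKS2, CENPF and CCNB1, so among these 8 genes CENPE alone kept opposite signs under each scaling run. CCNB1 also lost them under quantile normalization and centring on the brightest genes, and CDC25C under quantile normalization. The difference of the responses kept its sign under these scalings for all 8 (1.35 for CDC25C and 0.84 for ECT2 with median centring). It had the opposite sign in a second probe set of CENPF (0.58), CCNB1 (0.14), MAD2L1 (-0.06) and, at a much dimmer signal, ECT2 (-0.65). The other GTSE1 probe sets past the filter were lower in both lines, with differences of the responses from 0.05 to 0.20. That second MAD2L1 probe set was also lower in both lines (-0.15 and -0.21), while a dimmer one was not (-0.53 and 0.09).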

How the results depend on the processing

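The member medians kept their sign in all 4 comparisons under each alternative run. Stimulation in the control line gave -0.75 with median centring and -0.15 against the other line's solvent array, which adds the difference between the lines. Stimulation in the shIKKE line gave -0.66 with median centring and -0.67 with the other line's solvent array. The lines gave -0.31 with stimulation under median centring, and -0.25 with solvent by the median over probe sets. With median centring 11 members were at least 2-fold lower with stimulation in the control line, where 11.3% of all genes were. By the median of the probe sets the count was 1 (against 6.06% of all genes), and with the other baseline 0 (against 4.38%). In the shIKKE line the count was 6 with median centring (against 8.09% of all genes) and 7 with the other baseline (against 6.49%). Between the lines with solvent the count was 1 under quantile normalization, a pseudocount of 50 or the median of the probe sets. The shares of all genes were 6.49%, 3.39% and 6.31%. Between the stimulated lines 1 was lower under median centring, against 3.35% of all genes. A call at 1.5-fold gave 17, 7, 9 and 1 lower in the 4 comparisons, against 17.5%, 8.88%, 16.5% and 6.78% of all genes. With only probe sets that carry no suffix, 27 members were left, of which 25, 22, 23 and 16 were below 0. The shares of all genes below 0 were 52.8%, 47.4%, 54.1% and 46.6%. Leaving out the suffixed probe sets drops bright ones for dim ones. It gave 2 members at least 2-fold higher with stimulation in the shIKKE line, against 12.0% of all genes. Between the stimulated lines 1 was higher (against 6.47%), and between the lines with solvent 0 were lower (against 7.29%). CDC25C, at -1.40 with stimulation in the control line, was at 0.060 with the other baseline. With a variance trend 6 members passed limma for stimulation, against 7.61% of all genes. Centring on the brightest genes was chosen after seeing the data. The limma fit gives a stimulation effect averaged over both lines, with line in the model. No replicate block could be added because each group has 1 array. Depth has no measure here, and signals near the background scatter most. The cause of these moves was not tested.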
